A study of Saccharomyces cerevisiae with 8 samples.

Results

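Chromosome I, the shortest nuclear chromosome of budding yeast, was followed by DNA copy number through entry into S phase in 8 libraries. It comprised every window listed for chromosome I, from position 1 to 230208 of the sacCer2 build, which was 460 of the 24133 windows of the genome. Each window was 1000 bp long and began 500 bp after the one before it, so neighbouring windows share reads. All cells were W303 diploids homozygous for cdc7-4, a temperature-sensitive allele of the kinase Cdc7. They were also heterozygous for Mcm6-aid::HIS3, an auxin-degradable form of the helicase subunit Mcm6, and for ADH1-TIR::URA, which supplies the auxin receptor for that degradation. Control cells were in addition heterozygous for Mcm6-ctrl::KAN, and the other strain was heterozygous for Mcm6-SuOn::KAN. Cultures were held in G2/M with nocodazole, given auxin (IAA), moved to the temperature that inactivates cdc7-4, and then cooled to let them replicate. DNA was taken at 0, 15, 30 and 40 min after cooling, giving 1 library for each genotype and time. Every library of a genotype carried the same strain identifier, so each genotype is represented by a single strain, and no difference given here has a replicate check.

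Replication starts at licensed origins, where the MCM helicase is loaded in G1 and later activated by Cdc7. A stretch of DNA that is copied early is over-represented among the reads of an S-phase culture until the remainder of the genome has caught up, so copy number along a chromosome follows the order of replication. Yeast chromosome ends generally replicate late, and on so short a chromosome no sequence is far from an end. The right end of chromosome I carries FLO1, a cell-surface flocculin gene, and PHO11, an acid phosphatase gene, while PAU8, SEO1 and the related flocculin gene FLO9 lie near the left end. The RefSeq R64 annotation lists 94 protein-coding genes and 4 tRNA genes on the chromosome. That annotation is of another build, so no gene or mapped origin was placed on the windows.

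The unit used throughout is the level, which is the read count of a window divided by the median count of its library. The median was taken over 22843 windows that had more than 600 reads in each of the 8 libraries, and it lay between 1186 and 2017 reads. The counting SD of such a window was therefore 2.23% to 2.90%. Of the 460 windows of chromosome I, 374 (81.3%) met that condition, against 94.9% on the other chromosomes. The same 374 windows were available in each of the 4 control libraries, and 10 further windows in each of the 4 Mcm6-SuOn libraries. By their median on chromosome I, control at 0 min and Mcm6-SuOn at 40 min stood apart from the other 6 libraries. Their windows on chromosome I lay at a median log2 difference of -0.28 and -0.17 from the mean of those 6, whereas each of the 6 lay between -0.07 and 0.05 from the mean of the rest of the 6. The deviations of these 2 libraries went together, with r = 0.790 over 374 windows of chromosome I and 0.623 over 22469 windows elsewhere. Both deviations were taken from the same mean of 6 libraries, which by itself can make them go together. Windows share base composition and mappability, neighbouring windows share reads, and the pair was picked after its levels were seen. Both correlations are therefore descriptions.

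The 86 windows left out were gathered at the right end. The last of the 374 windows ended at 207000, and all of the 47 windows from 206501 to 230208 fell short of the count in at least 1 library. There were reads there in both 0 min libraries, 1478 in control and 3310 in Mcm6-SuOn, and the ratio of levels was 1.90 (95% counting interval 1.78 to 2.02). At the left end, in contrast, counts held up to the first base, and the window from 1 to 1000 entered every comparison. Inner gaps lay at 25001 to 27500, at 140001 to 141000 and at 160001 to 166500. The gaps at 190001 to 192500 and 192501 to 194500 were of another kind. Their median levels at 0 min were 0.419 and 0.440 in control but 0.659 and 0.776 in Mcm6-SuOn, and all 4 and 3 of their windows were measured in every later Mcm6-SuOn library. A further gap at 198001 to 206000 completed the list. No read fell into 16 windows in either 0 min library. These formed the stretches 162001 to 163000, 199501 to 202500 and 213001 to 218500, and an allowance of 3 reads in each library bounds the level over the longest of them at 0.000406 in control and 0.000344 in Mcm6-SuOn. Such limits cover counting error only.

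Before release, chromosome I was the lowest of the 16 chromosomes in control cells and the third lowest in Mcm6-SuOn cells. Its median level at 0 min was 0.857 in control, with the middle 50% of the 374 windows between 0.756 and 0.932. The other 15 chromosomes lay between 0.945 and 1.22. In Mcm6-SuOn at 0 min the median level was 0.981, with the others between 0.956 and 1.19. After release the control levels were 1.06, 1.05 and 1.01 at 15, 30 and 40 min, which gave ranks of 4, 2 and 5 from the top. The Mcm6-SuOn levels at the same times were 1.04, 0.995 and 0.915, with ranks of 6, 10 and 16, so that chromosome I was again the lowest of all at the last time. Chromosome VI, which is 270148 bp long and hence close to it in length, had the highest level in every library.

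**Figure D1:**
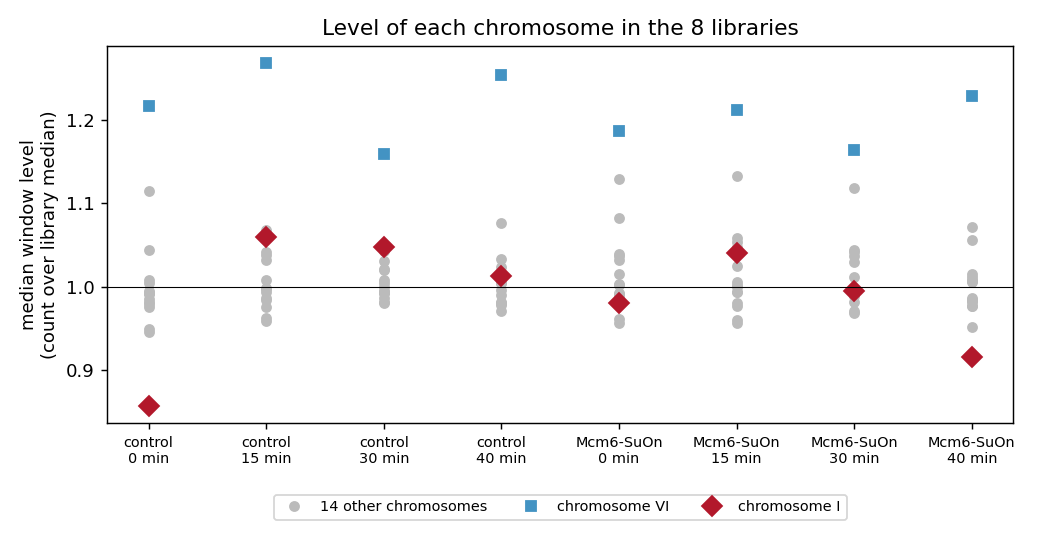
Median level of each chromosome (vertical axis, window count over the library median, no unit) in the 8 libraries, with chromosome I as red diamonds, chromosome VI as blue squares and the other 14 as grey circles. Chromosome I lies below all others in control at 0 min (0.857) and in Mcm6-SuOn at 40 min (0.915).

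Compared directly between the genotypes at one time, chromosome I was higher in Mcm6-SuOn before release and lower at the 3 later times. The median Mcm6-SuOn to control ratio of its windows was 1.18, 0.981, 0.967 and 0.883 in order of time. Summed reads gave 1.193 (95% interval 1.186 to 1.199 for counting error), 0.982 (0.977 to 0.988), 0.970 (0.965 to 0.975) and 0.883 (0.878 to 0.887). The later ratios do not contain a 0 min library. By the median, chromosome I had the highest ratio of the 16 chromosomes at 0 min. By summed reads chromosome III was higher at that time, at 1.245, and it stayed above 1 later, at 1.11, 1.13 and 1.07. At 30 and 40 min chromosome I was the lowest by either measure. The medians of the other 15 ranged from 0.962 to 1.12 before release and, in order of time, from 0.955 to 1.02, 0.987 to 1.06 and 0.943 to 1.03 afterwards. At 15 min the ratio of chromosome I lay inside that range, with rank 3 from the bottom. Among the next shortest chromosomes, the ratios at 0 and 40 min were 0.967 and 0.980 on chromosome VI, 1.12 and 1.02 on chromosome III and 1.103 and 0.943 on chromosome IX. Chromosome IX was thus likewise above 1 before release and below 1 at the end, by less than chromosome I, and chromosome VI was below 1 at both times. The ratio at 0 min rests on the control library whose chromosome I median stood apart, and that at 40 min on the Mcm6-SuOn library whose median did.

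Counts of single windows past a fold restate these ratios, since they come from the same 374 windows and libraries. At 0 min, 157 of the 374 windows (42.0%) were at least 1.2-fold higher in Mcm6-SuOn, against 7.32% of all windows of the genome, and 0 were 1.2-fold lower, against 0.665%. At 40 min, 86 windows (22.99%) were at least 1.2-fold lower, with a background of 1.27%, and 0 were higher, where the background was 1.79%. At 15 and 30 min few windows passed this fold. There were 1 and 11 lower windows, against 0.171% and 0.394% of the genome, and 0 higher windows at either time, with backgrounds of 0.963% and 1.18%.

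The ratio was not even along the chromosome, and the stretch to the right of 160 kb differed most. This border was chosen after the values were seen. The stretch held 59 of the 374 windows, and its median level at 0 min was 0.607 in control and 0.863 in Mcm6-SuOn. At the later times it was 0.964, 1.07 and 0.949 in control and 0.909, 0.945 and 0.743 in Mcm6-SuOn. Its genotype ratio was 1.43 before release (middle 50% of windows 1.36 to 1.55) and then 0.975, 0.891 and lastly 0.772 (0.738 to 0.809). Between 30 and 160 kb, in 258 windows, the ratios were 1.148, 0.978, 0.972 and 0.894, and in the left 30 kb, in 55 windows, they were 1.27, 1.01, 1.03 and 0.916. Without the right stretch the chromosome as a whole had ratios of 1.155, 0.982, 0.984 and 0.894, again above 1 only before release.

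In steps of 10 kb, of which 20 held at least 5 windows, the ratio at 0 min was above 1 in all 20 and at 40 min below 1 in 19. The exclusion of sparser steps was decided after the data were seen, and it left out 200001 to 210000, where 2 windows had a ratio of 2.48 at 0 min. The 95% counting error of a step was between 1.76% and 4.28% of its ratio over all comparisons. At 0 min the highest ratios were 1.64 at 190001 to 200000, 1.45 at 180001 to 190000 and 1.39 at 170001 to 180000. The same 3 steps had the lowest ratios at 40 min, at 0.698, 0.756 and 0.784. The lowest ratios at 0 min, 1.05 at 1 to 10000, 1.08 at 50001 to 60000 and 1.09 at 80001 to 90000, came from the left side. The 3 highest at 40 min were also from there, with 1.00 at 1 to 10000, 0.972 at 70001 to 80000 and 0.959 at 80001 to 90000. At 15 min the range was narrow, from 0.928 at 170001 to 180000, 0.944 at 50001 to 60000 and 0.949 at 70001 to 80000 up to 1.02 at 90001 to 100000, 1.03 at 130001 to 140000 and 1.04 at 1 to 10000. At 30 min the lowest were again on the right, with 0.875 at 170001 to 180000, 0.878 at 160001 to 170000 and 0.891 at 180001 to 190000. The highest at that time were 1.09 at 1 to 10000, 1.04 at 90001 to 100000 and 1.03 at 100001 to 110000.

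**Figure D2:**
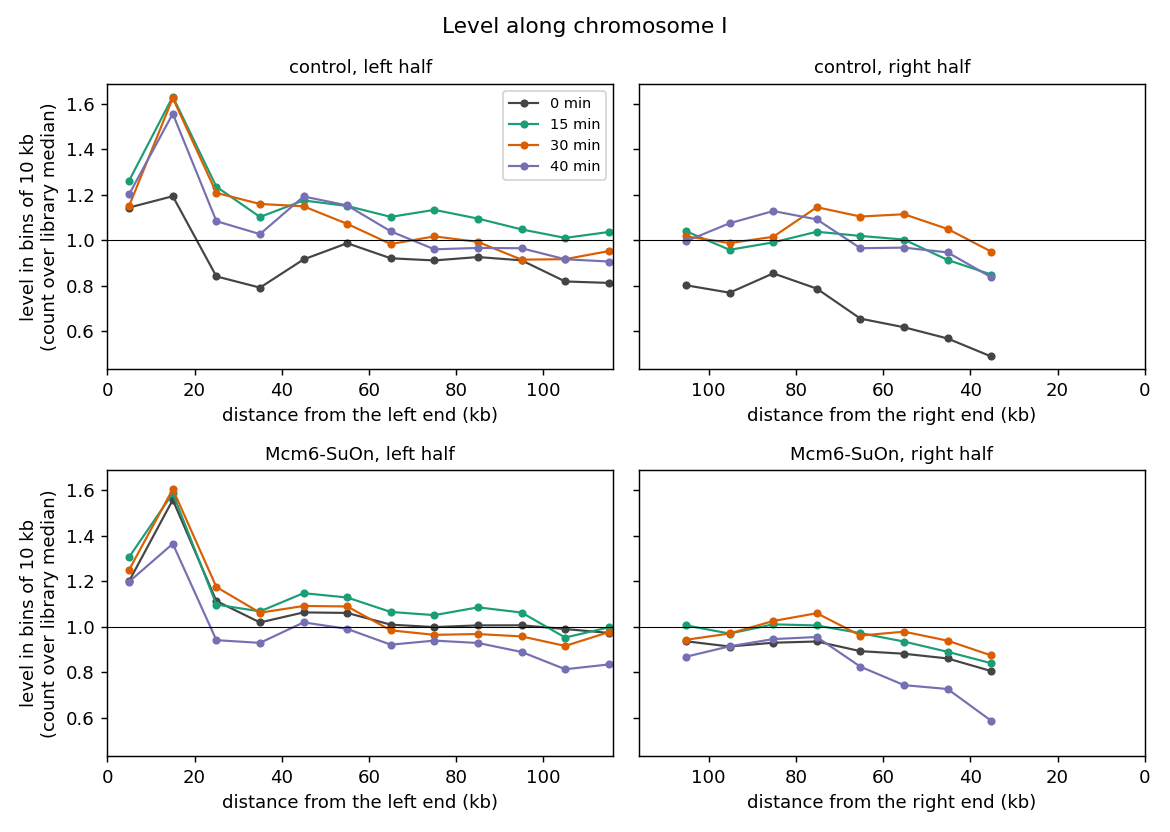
Median level in steps of 10 kb (vertical axis, window count over library median) against the distance from the left or the right end in kb, for control (top) and Mcm6-SuOn (bottom), with a line for each time. Control at 0 min goes down to 0.488 and Mcm6-SuOn at 40 min to 0.587 towards the right end, while the other 6 libraries stay at 0.805 or above.

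Windows at the same distance from an end on other chromosomes also differed between the genotypes. From 30 kb inward they did so by less than chromosome I, but not in every class nearer to an end. Between 10 and 20 kb at 30 min, the genotype ratio was 1.045 elsewhere and 1.019 on chromosome I. Between 30 and 50 kb from an end, the level in control at 0 min was 0.552 on the right side of chromosome I, 0.853 on its left side and 0.900 on the other chromosomes. In Mcm6-SuOn at 40 min the same levels were 0.681, 0.975 and 1.02. In this class the right side was the lower one in both libraries, and it was so in every other library too. In control at 15, 30 and 40 min it was at 0.879, 1.02 and 0.924, against 1.14, 1.15 and 1.09 on the left. In Mcm6-SuOn at 0, 15 and 30 min it was at 0.836, 0.879 and 0.904, against 1.04, 1.08 and 1.08. This did not hold in every class. From 75 kb to the middle, the right side was lower in control at 0 min, at 0.824 against 0.890 on the left. In Mcm6-SuOn at 40 min the right side was the higher one there, at 0.924 against 0.884. Divided by the median of windows at the same distance elsewhere, the genotype ratio of chromosome I was 1.11, 0.979, 0.963 and 0.914 in order of time. On this measure chromosome I ranked second at 0 min, behind chromosome III at 1.17, and last at 30 and 40 min. Chromosome III, unlike chromosome I, stayed above 1 and ranked first at the later times too, at 1.05, 1.11 and 1.12. The margin of chromosome I over chromosome IX at 0 min was small, with 1.112 against 1.109. Chromosomes VIII and IX, among others, were likewise above 1 at 0 min, VIII at 1.090. At 40 min these 2 were below 1, at 0.945 and 0.951.

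Set against the 30 single ends of the other chromosomes, the right side lay below their range at 40 min and in part at 30 min. Between 30 and 50 kb from the end, its ratio at 40 min was 0.744, and the lowest other end was at 0.828. From 50 to 75 kb it was 0.827, with the lowest other end at 0.844, and in the class from 75 kb to the middle 0.873, with the lowest at 0.891. At 30 min it had 0.902 from 30 to 50 kb and 0.886 from 50 to 75 kb, again below all 30 ends, whose lowest values were 0.949 and 0.913, but 0.972 in the class next to the middle, inside their range. At 15 min all 3 classes lay inside the range, at 0.992, 0.948 and 0.998. At 0 min it was not the extreme in these 3 classes. There, 1 other end was higher than its 1.501 from 30 to 50 kb and 1.33 from 50 to 75 kb, and 2 were higher than its 1.17 nearer to the middle. From 20 to 30 kb it had only 2 windows. In that class it was above all 29 other ends at 0 min, at 2.48, and below them all at 40 min, at 0.771. On the left side, only the class from 30 to 50 kb at 30 min, at 0.929, was below all 30 ends.

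**Figure D3:**
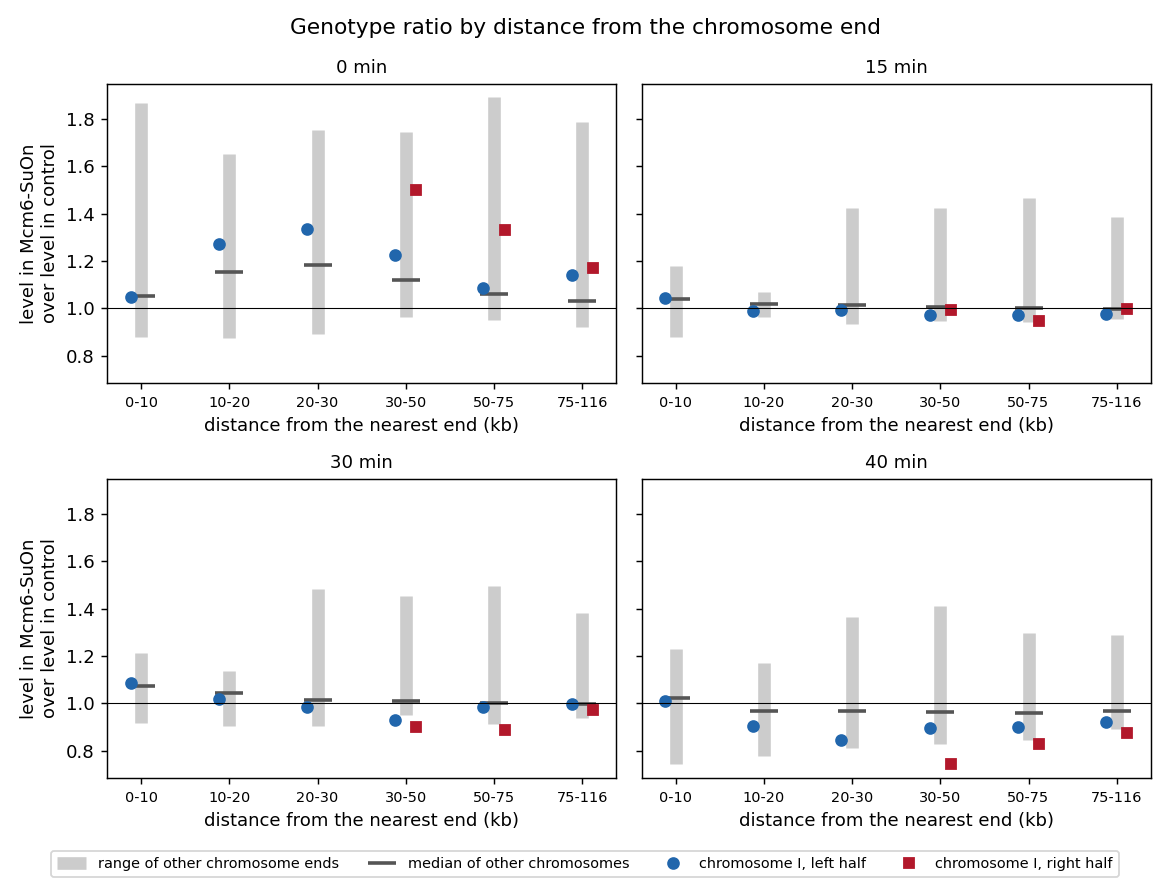
Ratio of the level in Mcm6-SuOn over that in control (vertical axis) by class of distance from the nearest end in kb, with a panel for each time. Circles and squares are the left and right sides of chromosome I, dashes the median of the other chromosomes and grey bars the range over their single ends. The squares lie above the dashes at 0 min and below the grey bars at 40 min, down to 0.744.

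Within each genotype, the level of chromosome I was higher at 15 and 30 min than at 0 min, by more in control. The control ratios to 0 min were 1.26, 1.22 and 1.23 at 15, 30 and 40 min, the highest of the 16 chromosomes each time. The next highest was chromosome III, at 1.134, 1.11 and 1.105. In Mcm6-SuOn the ratios were 1.05, 1.02 and 0.913, the highest of all chromosomes at 15 and 30 min and the lowest at 40 min. The margin at 30 min was small, with 1.023 against 1.022 on chromosome XII. Relative to windows at the same distance from an end elsewhere, the control ratios were 1.157, 1.116 and 1.103, still the highest of the 16. The Mcm6-SuOn ratios were then 1.02, 0.983 and 0.915, with ranks of 3, 12 and 15 from the top. The standing of chromosome I at 15, 30 and 40 min, and its side of 1 at 30 min, therefore did not hold on this measure. At 40 min chromosome IX was lower, at 0.905. At least 1.2-fold higher than at 0 min were 251, 196 and 207 of the 374 windows in control, where 10.1%, 13.4% and 9.51% of the genome passed the same fold. None was 1.2-fold lower (0 windows at each time), where 1.69%, 7.46% and 5.28% of the genome were. In Mcm6-SuOn, 6 windows were higher at 15 min and 3 at 30 min, with backgrounds of 0.543% and 1.09%, and 0 were lower, with 0.144% and 0.271%. At 40 min 38 of them were at least 1.2-fold lower, against 2.71% of the genome, and 0 higher, against 1.08%. All control ratios share the 0 min library that stood apart. Divided by the 0 min level of Mcm6-SuOn, as an alternative chosen with the values already known, the control ratios were 1.08, 1.06 and 1.03.

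Comparisons between later times involve no 0 min library, and from 15 to 30 min most stretches stood on the same side of 1 in both genotypes. To the right of 160 kb the level at 30 min over that at 15 min was 1.11 in control (middle 50% of windows 1.08 to 1.15) and 1.03 in Mcm6-SuOn (0.991 to 1.07). From 30 to 100 kb the ratios were 0.934 and 0.932. The left middle of the chromosome thus made up a smaller portion of the reads at 30 than at 15 min in both strains, and the right part a larger one in control. The lowest steps of 10 kb in control were 0.870 at 90001 to 100000, 0.894 at 80001 to 90000 and 0.897 at 100001 to 110000. In Mcm6-SuOn they were 0.895 at 80001 to 90000, 0.900 at 70001 to 80000 and 0.906 at 90001 to 100000. At the other extreme stood 1.12 at 190001 to 200000, 1.11 at 160001 to 170000 and 1.11 at 180001 to 190000 in control. The Mcm6-SuOn maxima were 1.04 at 150001 to 160000, at 170001 to 180000 and at 190001 to 200000. Of the 20 steps, 16 lay on the same side of 1 in both genotypes, with r = 0.822 on the log2 scale over the 20 steps. The 4 libraries behind these ratios are separate, although the steps along one chromosome are not independent. The same correlation was between 0.435 and 0.710 on the other chromosomes, which have more steps. Single windows past 1.2-fold were few, with 7 higher and 6 lower in control, where 1.51% and 1.07% of the genome were, and 0 higher and 3 lower in Mcm6-SuOn, where 0.298% and 0.118% were.

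From 30 to 40 min the stretch to the right of 160 kb was below 1 in both genotypes. There the level at 40 min over that at 30 min was 0.884 in control (middle 50% 0.856 to 0.915) and 0.778 in Mcm6-SuOn (0.737 to 0.805). In control 7 of the 20 steps were above 1, the highest of them 140001 to 150000 with 1.101, 50001 to 60000 with 1.07 and 130001 to 140000 with 1.07. In Mcm6-SuOn none of the 20 steps was above 1, and the lowest were 0.681 at 190001 to 200000, 0.762 at 170001 to 180000 and 0.768 at 20001 to 30000. The lowest in control were 0.863 at 160001 to 170000 and at 170001 to 180000, and 0.890 at 20001 to 30000. Over the 20 steps the genotypes had r = 0.717, inside the range of the other chromosomes (0.481 to 0.831). In Mcm6-SuOn 86 windows were at least 1.2-fold lower at 40 than at 30 min, against 4.66% of the genome, and 0 higher, against 1.66%. In control 9 were lower, against 3.07%, and 1 higher, against 2.52%. The median over the chromosome was 0.983 in control, which lay within the range of the other chromosomes (0.969 to 1.08), and 0.905 in Mcm6-SuOn, where chromosome IX followed closely at 0.906. Relative to the same distance elsewhere the Mcm6-SuOn ratio was 0.944, with rank 13 from the top. The Mcm6-SuOn ratios contain the 40 min library that stood apart.

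**Figure D4:**
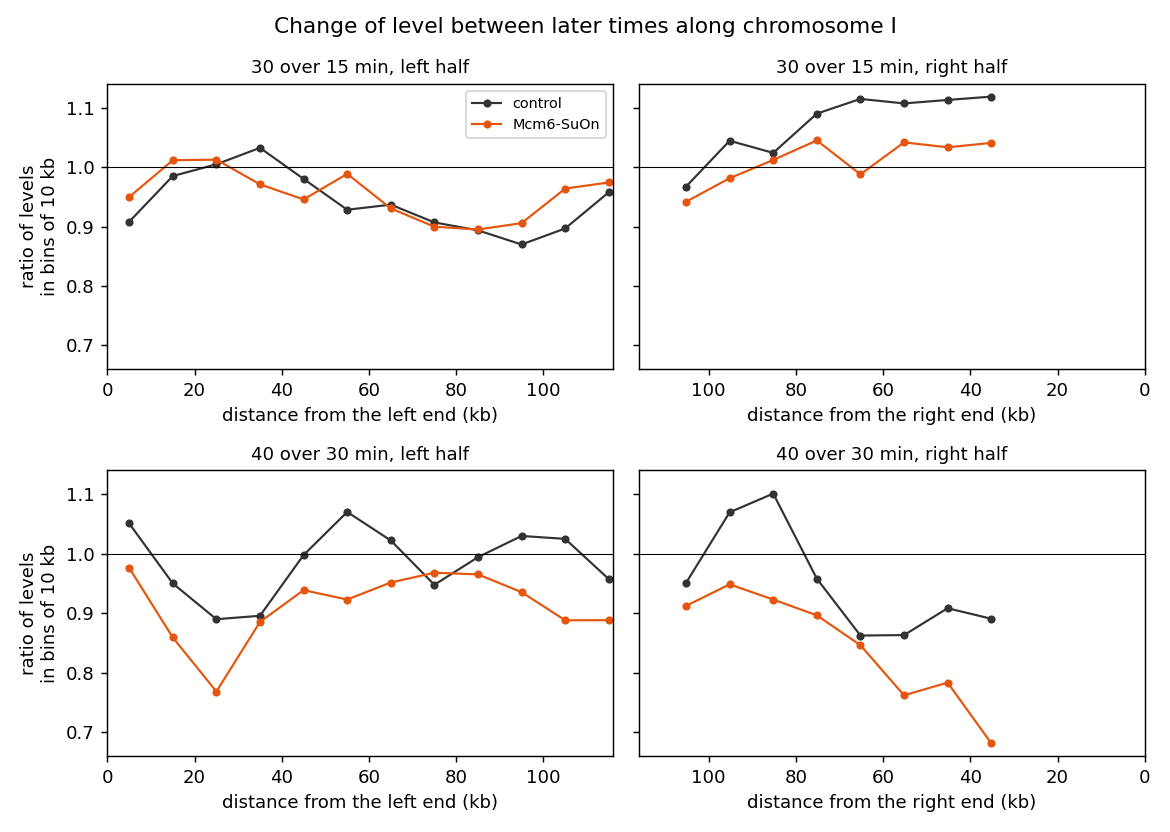
Ratio of levels between later times in steps of 10 kb (vertical axis) against the distance from either end in kb, for 30 over 15 min (top) and 40 over 30 min (bottom), with control in black and Mcm6-SuOn in orange. Both lines dip to about 0.9 in the left middle in the upper panels (0.870 and 0.895), and on the lower right Mcm6-SuOn goes down to 0.681.

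Local maxima of relative copy number, which in such profiles lie near places that replicate early, differed in number and place between times and genotypes. For this profile the level was divided by the mean 0 min level of both genotypes and averaged within 5 kb, and a maximum needed a prominence of at least 0.05. In control at 15 min there were 4, at 27001, 77001, 124001 and 174001, with values of 1.26, 1.18, 1.202 and 1.35. In Mcm6-SuOn at 15 min there were also 4, at 23001, 82001, 129501 and 166501, with values of 1.23, 1.13, 1.16 and 1.31. All these profiles share the 0 min denominator, so nearness of maxima between genotypes is not read as agreement. At 30 min control had 3, at 28001, 129001 and 167501, with values of 1.29, 1.19 and 1.53, and Mcm6-SuOn had 1, at 23001, with 1.248. At 40 min control had 3, at 18001, 45501 and 188501 (1.16, 1.17 and 1.35), and Mcm6-SuOn had 2, at 43501 and 159501 (1.02 and 1.11). The prominence of the control maximum at 167501 was 0.272 at 30 min. Per 100 kb of measured sequence, chromosome I had 2.14 maxima at 15 min in either genotype, against 1.76 in control and 1.42 in Mcm6-SuOn on the other chromosomes. At 30 min the control rates were 1.604 and 1.593 and the Mcm6-SuOn rates 0.535 and 1.06. At 40 min they were 1.604 and 0.846 in control and 1.07 and 0.792 in Mcm6-SuOn, with counts on chromosome I of 4 or fewer throughout.

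These maxima differed with the denominator, and the control 0 min level used in it is low to the right. Divided by the 0 min level of Mcm6-SuOn alone, control at 15 min had 4 maxima, at 27001, 77001, 123501 and 168501, but Mcm6-SuOn at 15 min had only 2, at 69001 and 166501. At 30 min the control then had 4, the highest of them at 167501 with 1.34 and a prominence of 0.439, and Mcm6-SuOn had 2, at 23001 and 159001, the latter with 1.16. At 40 min the highest control maximum was at 146501 with 1.19, and the Mcm6-SuOn one at 159501 with 1.03. In control the highest maximum thus lay at 168501 and 167501 at 15 and 30 min and at 146501 at 40 min on this scale. The unmeasured gap at 160001 to 166500 is next to most of these places, so their borders are not resolved.

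Averaged over the 6 later libraries, 2 sites passed, at 23001 to 24000 with a prominence of 0.160 and at 167001 to 168000 with 0.0509, just above the minimum. At the left site the control level was 0.859, 1.30, 1.33 and 1.21 at 0, 15, 30 and 40 min, and the Mcm6-SuOn level 1.19, 1.28, 1.26 and 1.003. The genotypes differed little there at 15 min, with a ratio of 0.982, and more at 40 min, with 0.827. At the right site the control level was 0.656, 0.986, 1.09 and 0.945, and the Mcm6-SuOn level 0.899, 0.951, 0.978 and 0.810. The genotype ratio at this site was 1.37, 0.965, 0.901 and 0.857 in order of time. The lowest point between the sites was at 92501 to 93500, where the smoothed profile was 0.971 in control and 0.992 in Mcm6-SuOn at 30 min. The sites depended on the settings. Over each genotype's own 0 min level, or with a minimum prominence of 0.1, the left site alone passed, and over the Mcm6-SuOn 0 min level the sites were at 43501 to 44500 and 159501 to 160500.

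Before release, 59 of 434 windows with a summed 0 min count of at least 50 were at least 1.5-fold higher in Mcm6-SuOn, against 1.66% of the genome, and all lay to the right of 160 kb. They made up 9 runs of at least 2 windows and 3 single windows. The longest run, 192501 to 199500, had 3903 control and 7696 Mcm6-SuOn reads and a ratio of 1.67 (95% interval 1.61 to 1.74). The run at 205001 to 211500 had 2.35 (2.20 to 2.51), 202001 to 204500 had 1.99 (1.79 to 2.22), and 218501 to 221500 had 1.99 (1.71 to 2.31). Next came 227501 to 229000 with 1.77 (1.28 to 2.48), 221501 to 226500 with 1.71 (1.55 to 1.90) and 190501 to 192500 with 1.60 (1.49 to 1.73). The lowest ratios were those of 183501 to 187000, at 1.55 (1.48 to 1.64), and 174501 to 176000, at 1.51 (1.39 to 1.66). Choosing runs by this ratio makes it high, and the later libraries did not enter the choice. Of the 59 windows, 19 were measured in all 8 libraries. Their median ratio was 1.59 at 0 min, and at the later times it was 0.999, 0.910 and 0.727. In the other 355 measured windows it was 0.981, 0.971 and 0.887 at those times. By their median, these 19 windows were thus level with control at 15 min and lower at 40 min, where all 19 ratios were between 0.655 and 0.867. Their choice used the control 0 min library, whose deviations went together with those of the Mcm6-SuOn 40 min library. The ratio at 40 min shares no library with the choice, but its independence from the choice was not tested and is not assumed.

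The left end held the highest levels of the chromosome. The step from 10001 to 20000 had the maximum of all 20 steps in every library, with a level of 1.19 in control at 0 min, 1.63, 1.62 and 1.56 at the later control times, 1.56, 1.59 and 1.61 in Mcm6-SuOn at 0, 15 and 30 min and 1.37 at 40 min. Levels of at least 1.2 in every library were found in 14 of the 374 windows (3.74%), against 0.692% of all 22843 windows. Chromosome VI had a larger share, 12.7%, and chromosome III a similar one, 3.45%. Of these 14, 4 windows lay within 1 to 2500, 5 within 13501 to 16500 and 4 within 17001 to 19500. Within 13501 to 16500 the median control level was 1.247 before release and 1.85 at 15 min, and the median Mcm6-SuOn level 1.69 and 1.80. The remaining window of the 14 had no such neighbour.

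The adjusted ratios that the authors deposited beside the plain ones set the mean of every chromosome to 1, and so they do not show the level of chromosome I. The factor applied to chromosome I, relative to the median factor of the 16 chromosomes, was 0.788, 0.794 and 0.807 in control at 15, 30 and 40 min, and 0.953, 0.976 and 1.09 in Mcm6-SuOn. The values above were computed from the plain ratios for that reason.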

How the data were processed

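Genomic DNA was purified by CsCl ultracentrifugation and sequenced from 8 cultures, per the labels' protocols. For 0 min the authors deposited raw read counts per window, and for each later time a ratio to that table. Windows lie on sacCer2, per the submitters' processing notes. For the aligner and read filters, not given in the sources used here, nothing was assumed. Later counts were recovered as ratio times 0 min count. These products were whole, to within the rounding of the ratio, for 100% of windows with at most 1000 counts at 0 min, where random values would be so for 79.7% to 88.4%, a weak check. Ratios are listed at 0 where a count is at most 600. Library totals, with each read counted once, were 13789197 to 23439686.

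Levels, ratios, maxima and runs were computed with Python 3.11.15, numpy 2.4.6, pandas 2.3.3 and scipy 1.17.1 and tested on simulated data. Intervals are exact binomial at 95% and cover counting error only. With 1 library per group no test was run. Alternatives covered the windows, the denominator, the fold and the smoothing. Regions named are all maxima and runs, all gaps, and the 3 highest and 3 lowest steps of 10 kb by genotype ratio. Steps named for changes between later times, the 160 kb border and the windows high in every library were chosen after their values were seen. The chromosome, lists and measures were chosen with earlier results of these data known.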

Additional observations from a re-analysis of the deposited data

Results flagged for a closer look

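The genotype ratio of chromosome I changed sides between the 0 min and the later libraries. It was 1.18 at 0 min and 0.981 at 15 min, so that the later ratio was 0.833 of the earlier one. With 0.967 at 30 min it was 0.821 of it, and with 0.883 at 40 min 0.750. The change from 0 to 40 min also went opposite ways in the 2 genotypes, with 1.23 in control and 0.913 in Mcm6-SuOn, and the second was 0.740 of the first. Each of these values rests on a single library per genotype and time, so the differences were not tested. All of them contain the control 0 min library, which stood apart from the rest. Those for 40 min also contain the Mcm6-SuOn 40 min library, which stood apart by its median on chromosome I but not by its spread. The part of either library in the result was not tested.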

How the results depend on the processing

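Of 79 alternative values of the 14 chromosome-wide ratios, 0 changed sides of 1, 39 moved by no more than the margin of the 95% counting interval of the summed-read ratio, and 40 moved by more. Ratios relative to the same distance elsewhere were not among these alternatives. On that measure the Mcm6-SuOn ratio of 30 over 0 min was 0.983 in place of 1.02, on the other side of 1. With at least 1000 counts in each of the 8 libraries, the genotype ratios at 0, 30 and 40 min were 1.16, 0.990 and 0.898. The control ratios to 0 min were then 1.23, 1.18 and 1.18, the control steps 0.960 (30 over 15 min) and 0.999 (40 over 30 min), and the Mcm6-SuOn values 1.01 (30 over 0), 0.926 (40 over 0), 0.964 (30 over 15) and 0.917 (40 over 30). Without the stretch from 160 kb, added after the data were seen, the genotype ratios were 1.155, 0.984 and 0.894 at 0, 30 and 40 min. The control values were 1.23, 1.18 and 1.19 against 0 min and 0.962 and 0.999 for the steps, and the Mcm6-SuOn values 1.01, 0.927, 0.965 and 0.921 in the order above. Over the mean 0 min level of both genotypes, control was at 1.17, 1.13 and 1.12 and Mcm6-SuOn at 1.14, 1.101 and 0.993. Over the Mcm6-SuOn 0 min level, also added, control was at 1.08, 1.06 and 1.03. Shares of reads gave 1.247 (control, 30 over 0), 1.22 (control, 40 over 0) and 0.893 (Mcm6-SuOn, 40 over 30). Without the outer 30 kb the values were 0.955 (genotypes, 30 min), 1.24 (control, 40 over 0), 0.988 (control, 30 over 15) and 0.919 (Mcm6-SuOn, 40 over 0).

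The number of sites was 2, and it was 1 over each genotype's own 0 min level, 1 at a prominence of 0.1 and 4 with averaging within 2.5 kb. Under the former pair of settings the right site was lost. Over the Mcm6-SuOn 0 min level there were 2, both elsewhere, at 43501 to 44500 and 159501 to 160500. At a fold nearer to 1 than 1.5, runs before release numbered 17 in place of 9, and windows 178 in place of 59. With a running median over 5 windows, 142 in place of 157 windows were higher in Mcm6-SuOn at 0 min and 66 in place of 86 lower at 40 min, while windows lower in Mcm6-SuOn at 40 than at 0 min numbered 23 in place of 38. The counts depended strongly on the fold, with 282 at 1.1-fold and 19 at 1.5-fold at 0 min, and 242 and 1 at 40 min. No paired analysis was possible because each genotype and time has 1 library. No window past 207000 could be followed through all libraries.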
